A study of Homo sapiens with 4 samples.

Results

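The 9 genes described here carry the transforming growth factor-β (TGF-β) signal from the ligand to the nucleus: TGFB1, TGFBR1, TGFBR2, SMAD2, SMAD3, SMAD4, SMAD7, TGIF1 and TGIF2. They were taken by exact gene name from the array's annotation, with every probe, which gave 14 of the 50599 probes and 9 of the 36337 names on the array. Expression was compared in GIST-T1, a long-established human line that grew out of a gastrointestinal stromal tumor (GIST), between a miR-34a mimic and negative control RNA. A mimic is a synthetic RNA that acts as the mature miRNA. Cells received 100 pmol of either RNA by nucleofection, total RNA was taken 48 h later, and 100 ng was labeled with Cy3 and hybridized to one-color Agilent arrays, 2 for each condition. Both conditions therefore shared the cell line and the transfection procedure, and untransfected cells were not analysed here. No label says that the 2 arrays of a condition came from separate cultures, so p-values measure only the spread between these samples, in 1 cell line.

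In this pathway the TGF-β ligand binds the type II receptor, which phosphorylates the type I receptor, and the type I receptor phosphorylates SMAD2 and SMAD3. These join SMAD4, the common SMAD, and the complex enters the nucleus and regulates transcription. SMAD7 is induced by the pathway and inhibits it at the receptor, while TGIF1 and TGIF2 are homeodomain corepressors that bind active SMADs and restrain transcription. Among the 9 genes, SMAD4 and TGIF2 have been described as targets of miR-34a. The pathway restrains growth of many epithelial cells and promotes matrix production in mesenchymal cells.

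The mature strand that the mimic carries is shown with its seed, bases 2 to 8, in capitals, because the seed is the part that pairs with target mRNAs. The sequence is that of RefSeq (GRCh38.p14, chr1:9151735-9151756, minus strand).
hsa-miR-34a-5p: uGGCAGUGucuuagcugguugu
The letters that pair with this seed, CACTGCC, were in 0 of the 14 probes of the 9 genes and in 220 of all 50599 probes (0.435%). The other usual seed match, ACTGCCA, was in 0 of the 14 and in 199 of all probes (0.393%). Both were searched on the strand of the transcript as written in the probe, and they can overlap in a longer match. The 60 bases of a probe are a small part of an mRNA, and the 3′ untranslated regions themselves were not examined here.

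The labels give the cells as GIST-T1, which the marker signals by themselves do not establish. All 7 GIST markers (KIT, ANO1, ETV1, PDGFRA, CD34, PRKCQ and GPR20) stood well above background on all 4 arrays, by the flag that Agilent Feature Extraction gives a spot clearly brighter than its background. So were 3 of 4 epithelial markers and 2 of 4 leukocyte markers (PTPRC, which defines leukocytes, was not), but 0 of 4 endothelial markers. Between 41.8% and 45.2% of the probes were well above background on an array. All arrays shared 1 slide and 1 scan, where the 2 negative control arrays lay next to each other and the 2 miR-34a mimic arrays next to each other, so that position on the slide and condition cannot be told apart.

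Levels are given as scaled log2 signals, which are the log2 processed signal of a probe minus the 75th percentile of its array. They serve to compare arrays at the same probe, not one probe with another. Differences are miR-34a mimic minus negative control, in log2 units with the standard error (SE), and were tested with limma. P-values were adjusted by Benjamini-Hochberg over 21474 probes, those with a signal well above background on each array of 1 condition or of both. Of the 14 probes, 10 were tested, from 8 of the 9 genes, and 9 of them had signals well above background throughout. The remaining 4 (all 3 for SMAD4 and the second probe for TGFBR2) were not above background on any array. The 10 tested probes passed this filter on their own signal, so counts over them do not stand for all 14. The TGFBR1 probe passed it only through the mimic arrays, where it is high, so its place in counts of higher probes is no support for a difference.

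By limma, 0 of the 10 probes had an adjusted p under 0.05, and 0% of all tested probes did. The lowest adjusted p among the 10 was 0.109, and the lowest over all 21474 probes was 0.0948. At an unadjusted p under 0.05, limma gave 3 lower probes (11.6% of all tested probes) and 3 higher (12.7%). The higher include TGFBR1, with its control signals as read, which was tested only because of its signal on the mimic arrays. The study's methods name a general test for continuous variables, without tying it to the arrays. Run on the same values with equal variances, it gave 2 lower (8.65% of all probes) and 2 higher (10.9%) before adjustment, and 0 after it, where 1 of 21453 probes passed. An exact two-sided permutation test of 2 against 2 arrays cannot go below p = 0.33. When limma's variance was allowed to follow the mean signal (a variance trend), 1 probe passed as lower, for TGIF1, against a background of 3.6% of all probes, and 1 as higher, for TGFBR2, against 3.81%.

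In size, the probes measured in both conditions differed by less than 1.5-fold, as most of all tested probes did. With so few probes, counts of 0 do not set these genes apart. Of the 10 probes, 0 were lower by more than 1.5-fold, where 4.8% of all tested probes were, and 0 of the 9 measured in both conditions were higher by more than 1.5-fold, where 2.11% of all tested probes were. The remaining probe, for TGFBR1, was not above background in the controls, and its approximate lower bound was under 1.5-fold. With TGFBR1 at its signal as read, the median difference of the 10 was -0.03, against -0.01 over all tested probes, and the median size was 0.21, against 0.15. Both arrays of one condition lay below both of the other for 4 probes lower with the mimic (TGFB1, 2 probes for TGIF1, and TGIF2) and 4 probes higher (TGFBR2, SMAD3, the upstream TGIF1 probe and, with unmeasured controls, TGFBR1). Over all tested probes, such separation was met in 30.1% for lower and 30.4% for higher. In RNA from whole cultures, fewer cells that express a gene and less of its RNA per cell cannot be told apart.

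**Figure D1:**
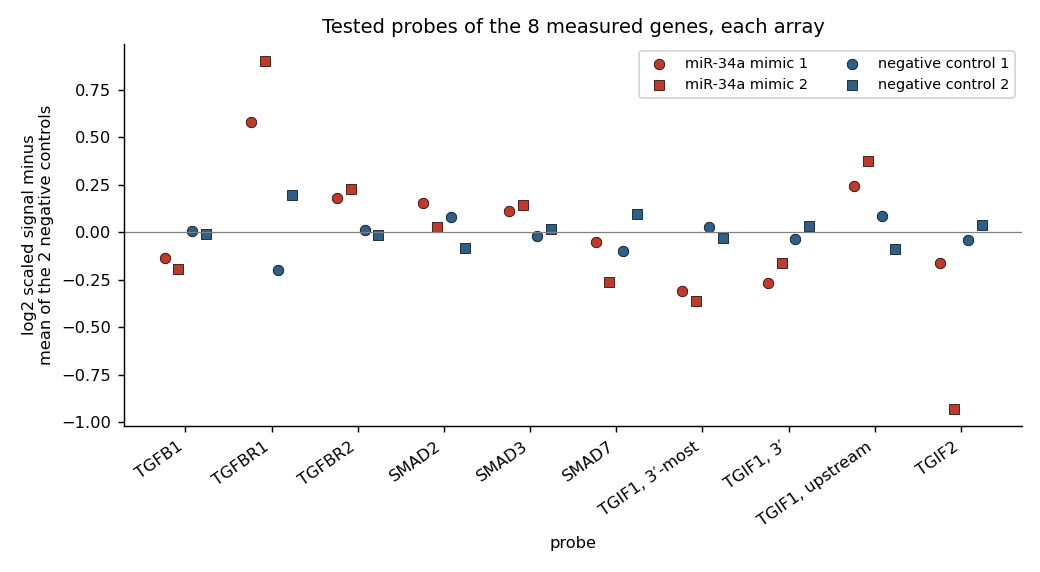
Scaled log2 signal of each of the 10 tested probes on each of the 4 arrays (vertical axis, after subtracting the mean of the 2 negative control arrays at the same probe; red, miR-34a mimic; blue, negative control; circles and squares, arrays 1 and 2). The 2 mimic arrays lie 0.77 apart for TGIF2 and close together for TGFB1, TGFBR2, SMAD3 and the 3′-most TGIF1 probe, where the conditions do not overlap.

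TGFB1 encodes TGF-β1, the ligand that gives the pathway its name. Its probe is the only one of the 14 that was spotted more than once, with 10 spots on each array, and it reads coding sequence of the mature growth factor. Its 60 bases lie within 9661 bases of the genome (hg19, chr19:41838142-41847802, minus strand), so that the probe crosses a splice junction and matches spliced RNA. It is shown because the most heavily measured value of the 9 genes rests on it.
TGFB1 probe: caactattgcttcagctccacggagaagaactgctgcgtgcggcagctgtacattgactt
The scaled log2 signal was 0.21 and 0.16 on the mimic arrays and 0.36 and 0.34 on the control arrays. Both mimic arrays were lower than both controls. The difference was -0.17 (SE 0.056, n = 2 against 2), its 95% interval ran from -0.33 to -0.0017, and the limma adjusted p was 0.203, or 0.219 with the variance trend.

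The spots show how finely this value was measured within an array. The SD over spots was 0.154 and 0.111 on the mimic arrays, the latter over 9 spots because 1 had an outlier flag, and 0.108 and 0.048 on the control arrays. Single spots overlapped between the conditions, since they ran from -0.191 to 0.335 on the first mimic array and from 0.214 to 0.562 on the first control array. Spots of 1 array share its RNA and are not replicates of the condition, so the test used their mean. Under the other settings tried, the difference stayed between -0.19 and -0.14, with adjusted p between 0.18 and 0.52.

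**Figure D2:**
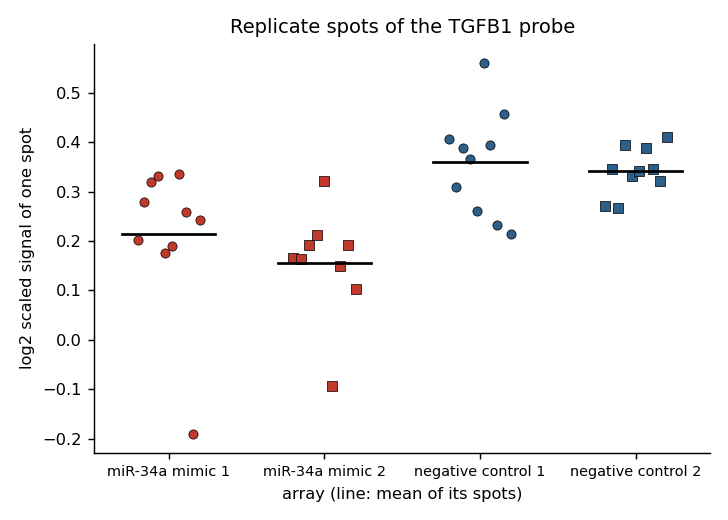
Scaled log2 signal of each spot of the TGFB1 probe (vertical axis) on the 4 arrays, with a line at the mean of each array's spots, 10 per array except 9 on the second miR-34a mimic array. The 2 mimic means, 0.214 and 0.156, lie below the 2 control means, 0.359 and 0.342, while single spots overlap.

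Of the receptor genes, TGFBR2 was measured in both conditions, while TGFBR1 was above background on the mimic arrays only. TGFBR2 is the type II receptor, the kinase that binds the ligand first. At its bright probe (hg19, chr3:30735163-30735222, plus strand) the mimic arrays read 4.20 and 4.24 and the control arrays 4.03 and 4.003. These are separate ranges with gaps of 0.04 and 0.03 between the replicates. The difference was 0.205 (SE 0.055), a 1.15-fold higher signal, with a 95% interval from 0.05 to 0.36. The limma adjusted p was 0.157, and 0.0489 with the variance trend. The latter p was 0.247 without the first control array, 0.275 without the second and 0.0569 without the second mimic array, while the difference itself stayed between 0.18 and 0.23 in every setting tried.

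The second TGFBR2 probe, designed on an Ensembl transcript at chr3:30703057-30703116 of hg19, gave no measurement of that transcript. On no array did it stand well above background, with scaled log2 signals of -3.93 and -3.07 on the mimic arrays and -5.21 and -3.38 on the control arrays, and these ranges overlapped.

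TGFBR1 is the type I receptor, the kinase that phosphorylates SMAD2 and SMAD3. Its probe (hg19, chr9:101916322-101916381, plus strand) was well above background on both mimic arrays and on neither control array. The scaled log2 signals were -2.88 and -2.56 with the mimic and -3.65 and -3.26 with the control, so the conditions did not overlap, but the control values have only an upper bound. Each control array was set at the higher of the probe's own signal and the lowest signal well above background. The mimic signal was then 1.41-fold higher. This lower bound is approximate, since a probe can miss the flag above that lowest signal. The second TGFBR2 probe did so on the second mimic array, at -3.07 against -3.21. The fit across all probes, which took the control signals as read, gave a limma adjusted p of 0.157 and of 0.213 with the variance trend. No size beyond the bound can be given.

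SMAD2 and SMAD3 are the receptor-regulated SMADs of the TGF-β branch. SMAD3 (hg19, chr15:67487391-67487450, plus strand) read 0.795 and 0.83 on the mimic arrays and 0.67 and 0.70 on the control arrays. The mimic arrays were both higher, by 0.13 (SE 0.055), with a 95% interval from -0.03 to 0.29 and a limma adjusted p of 0.262. SMAD2 (hg19, chr18:45360188-45360247, minus strand) read -0.93 and -1.05 with the mimic and -1.004 and -1.16 with the control. Its ranges overlapped, and the difference of 0.09 (SE 0.092, limma adjusted p = 0.56) had a 95% interval from -0.17 to 0.36. For both SMADs the interval lay within 1.5-fold in either direction, but it measures only the spread between these arrays.

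SMAD4, the partner that both branches of the pathway share, could not be measured. All 3 of its probes lie in 2 places on chromosome 18 (hg19, plus strand): 1 at chr18:48605060-48605119 and a neighboring pair at chr18:48611270-48611329 and chr18:48611330-48611389. None was well above background on any array. Their processed signals were between 3.36 and 4.52 on the 4 arrays, where 308 negative control spots on each array, which match no transcript, had a 5th percentile of 3 to 3.18 and a 95th percentile of 4.25 to 4.61. Of the 12 signals, 11 lay between these percentiles of their own array, and 1, on the second control array, lay above. A difference in SMAD4 mRNA was not detectable with these probes, and its level in these cells is not given by them.

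SMAD7 is the inhibitory SMAD, which recruits ubiquitin ligases to the active receptor. Its probe (hg19, chr18:46446782-46446841, minus strand) read -0.21 and -0.43 on the mimic arrays and -0.26 and -0.07 on the control arrays. The conditions overlapped. The difference was -0.16 (SE 0.12), with a 95% interval from -0.50 to 0.19 and a limma adjusted p of 0.464, and leaving out single arrays moved it between -0.05 and -0.26.

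The corepressor TGIF1 held the probe with the smallest p-value of the group and was also the gene whose probes went in opposite directions. The probe nearest its 3′ end (hg19, chr18:3458275-3458334, plus strand) read 1.89 and 1.84 on the mimic arrays and 2.23 and 2.17 on the control arrays. The 2 ranges were separate by several times the gaps between replicates, which were 0.05 and 0.06. The difference was -0.34 (SE 0.059), a 1.26-fold lower signal, with a limma adjusted p of 0.109 and of 0.0314 with the variance trend. The latter p was 0.233 without the first control array and 0.214 without the second.

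The second 3′ probe of TGIF1 (hg19, chr18:3458026-3458079) went the same way. It read 0.72 and 0.82 on the mimic arrays and 0.95 and 1.02 on the control arrays, again with no overlap. Its difference was -0.21 (SE 0.069), with a limma adjusted p of 0.191 and of 0.132 with the variance trend. Both 3′ probes were designed on the same transcript record and lie close together, so they share a target.

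The third, upstream probe of TGIF1 (hg19, chr18:3449919-3449978) was designed on an Ensembl transcript. It read -1.33 and -1.20 on the mimic arrays and -1.49 and -1.67 on the control arrays, where the mimic arrays were both higher. The difference was 0.31 (SE 0.098), with a limma adjusted p of 0.186 and of 0.242 with the variance trend, and 0.07 after normexp background correction, a model-based correction with an offset of 50 added to every signal. Within each array, the log2 ratio of the 3′-most to the upstream probe differed by -0.65 between the conditions, and that of the second 3′ probe to the upstream probe by -0.53. These ratios were not tested, so an unequal change between the probes is not established. Nor do they tell which of the probes stayed the same.

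The position of the upstream probe sets it among the alternative starts of TGIF1. RefSeq windows around gene starts, from 250 bases before to 50 after, gave 7 starts for TGIF1 in GRCh38.p14, and 59 bases of the probe matched inside 1 of them (chr18:3449922-3449980). There the match runs from 250 to 192 bases before the start at 3450172. It also begins 215 bases after the start at 3449707 and 354 bases after the one at 3449568, so that the probe can read transcripts from upstream starts and lies outside those that begin at 3450172 or further downstream. Whether the bases lie in an exon of each transcript was not examined here. The last 30 of the matched bases (GRCh38.p14, chr18:3449951-3449980, plus strand) are printed to show where this probe reads.
TGIF1 start window stretch: tgcgcggcaggcggaaaggatcgtgtttct

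TGIF2, the second corepressor of the family, gave the lowest mean difference of the 10 probes and the widest error. Its probe (hg19, chr20:35221586-35221645, plus strand) read -2.09 and -2.86 on the mimic arrays and -1.97 and -1.89 on the control arrays. Both mimic arrays were lower, but they lay 0.77 apart, and the first was much nearer to the controls than to the second. The difference was -0.55 (SE 0.292), with a 95% interval from -1.40 to 0.30, a limma adjusted p of 0.333 and of 0.294 with the variance trend. It was -0.93 without the first mimic array and -0.16 without the second, so 1 array set most of its size, and -0.28 after normexp background correction. Of 2930 tested probes within 0.5 log2 units of its mean signal, 258 (8.81%) had a gap between the mimic arrays at least as large, against a median gap of 0.27.

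**Figure D3:**
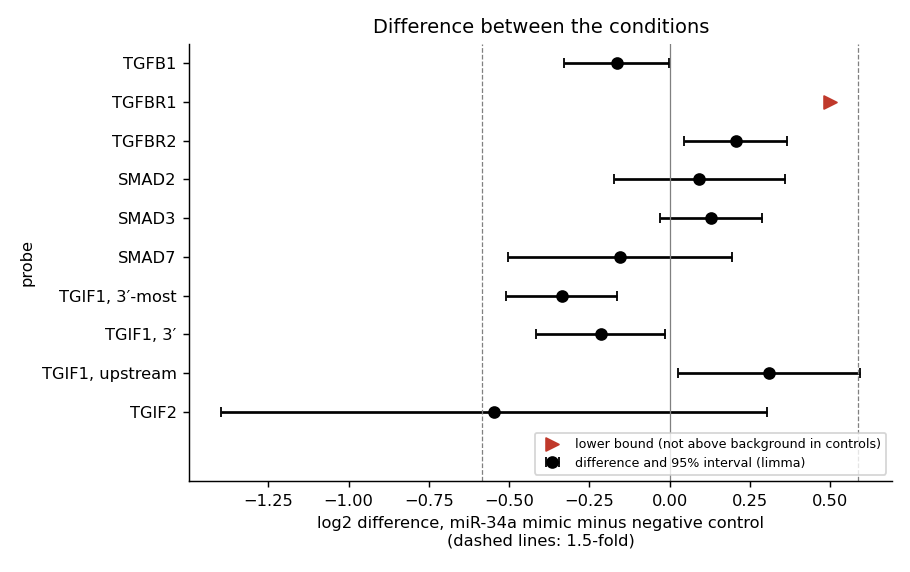
Difference between the conditions for the 10 tested probes (horizontal axis, log2, miR-34a mimic minus negative control; points, limma estimates from 2 against 2 arrays; bars, 95% intervals; red triangle, lower bound for TGFBR1, which has no point; dashed lines, 1.5-fold). The intervals of the SMAD probes and TGIF2 include 0, and the upstream TGIF1 probe lies on the other side of 0 from both 3′ probes.

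None of the 9 probes measured in both conditions changed direction in the settings tried. Changes of filter or of test could not alter it, nor could leaving out 1 array where the conditions did not overlap. The range over settings was -0.93 to -0.16 for TGIF2 and 0.07 to 0.40 for the upstream TGIF1 probe. It was narrower for SMAD3, from 0.10 to 0.15, and for the 3′-most TGIF1 probe, from -0.37 to -0.29.

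**Figure D4:**
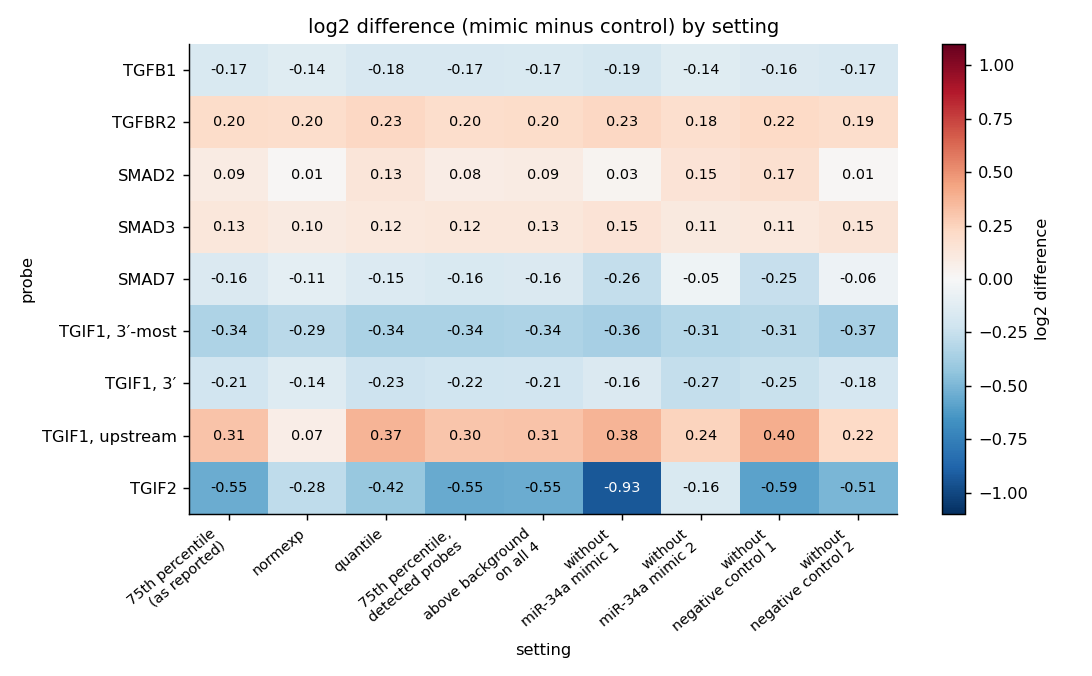
Difference (log2, miR-34a mimic minus negative control, in color and in print) of each of the 9 probes measured in both conditions (rows) under 9 settings (columns), from the scaling used in the text to fits without 1 array. Signs are the same along each row, which leaving out 1 array could not change where the conditions did not overlap. TGIF2 runs from -0.93 to -0.16.

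Around these 9 genes, 97 other genes of the pathway were followed by a list ordered by role, with the brightest tested probe of each. All 97 were on the array and 75 were tested, of which 37 were lower and 38 higher under the mimic. Their median difference was 0.003, against -0.007 over the 16192 gene names tested, and the median size was 0.126, against 0.15. By limma, 0 had an adjusted p under 0.05 (at an unadjusted p under 0.05, 11 were lower and 10 higher, where 11.9% and 13% of all tested genes were). More than 1.5-fold lower were 5 of the 75, where 4.83% of all tested genes were, and more than 1.5-fold higher were 3, where 1.95% were. With the variance trend, 5 passed as lower, where 3.96% of all tested genes did, and 5 as higher, where 4.28% did, but 0 of the 75 passed without the first control array or without the second.

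Among ligands, 10 of 17 were tested, and 1 passed with the variance trend. This count and those for the other roles stand against 3.96% of all tested genes for lower and 4.28% for higher. GDF15, a distant family member that signals through a receptor of its own, read 5.53 and 5.52 on the mimic arrays and 6.59 and 6.61 on the control arrays, a difference of -1.07 (2.11-fold; adjusted p = 0.0948 by limma, and 0.00472 with the trend). The TGF-β ligand TGFB3 differed by 0.13 (limma adjusted p = 0.439), and TGFB2 did not pass the filter on dim probes. Of the genes for latency and activation, which hold TGF-β in the matrix and release it, 6 of 11 were tested and 0 passed; the largest difference was 0.20, for LTBP3, a name outside the rule and chosen after its value was seen.

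Extracellular antagonists, which bind ligands before they reach a receptor, were measured for 4 of 7 genes, and 1 passed with the trend. FST, or follistatin, which binds activins, read 2.996 and 3.11 with the mimic and 2.29 and 2.34 with the control, a difference of 0.74 (1.67-fold; adjusted p = 0.0948 by limma, and 0.0102 with the trend). Of the other receptors and coreceptors, 10 of 13 were tested and 1 passed with the trend. This was BMPR1A, a type I receptor for bone morphogenetic proteins, at -0.28 (trend adjusted p = 0.0372), whose 5 probes ranged from -0.34 to -0.22. Its other probes had trend adjusted p of 0.0358, 0.0728, 0.0787 and 0.0827, so not all passed.

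Of the other SMADs, all 4 were tested and 0 passed. SMAD anchors, ubiquitin ligases and phosphatases were all measured, 14 of 14, and 1 passed with the trend in each direction. FKBP1A, which binds the type I receptor and keeps it inactive, differed by -0.37 at its brightest probe (trend adjusted p = 0.0228), while its 5 probes ranged from -0.37 to -0.02. Its other probes did not pass, with trend adjusted p from 0.0999 to 0.864. STUB1, a ubiquitin ligase, differed by 0.24 (trend adjusted p = 0.0347).

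Nuclear partners were all measured, 10 of 10, and 2 were lower by more than 1.5-fold, where 4.83% of all tested genes were. HDAC1, a histone deacetylase that corepressors such as TGIF1 recruit, read 4.73 and 4.74 on the mimic arrays and 5.41 and 5.40 on the control arrays, a difference of -0.67 (1.59-fold; adjusted p = 0.0948 by limma, and 0.00669 with the trend). FOXH1, a DNA-binding partner of SMAD2, differed by -0.68 (1.60-fold) with a trend adjusted p of 0.101.

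The genes often used as readouts of TGF-β signaling went both ways. Of 21, 17 were tested, 10 lower and 7 higher. With the trend 1 passed as lower, where 3.96% of all tested genes did, and 3 as higher, where 4.28% did. SNAI1, a repressor of epithelial genes, differed by -0.65 (1.57-fold; trend adjusted p = 0.0104), and JUNB, an AP-1 subunit, by -0.63 (1.54-fold; trend adjusted p = 0.0522). Higher were TAGLN, an actin-binding protein of smooth muscle, by 0.70 (1.62-fold; trend adjusted p = 0.0157), CCN2, a matricellular protein, by 0.66 (1.59-fold; trend adjusted p = 0.0237), and ID2, an inhibitor of helix-loop-helix factors, by 0.53 (1.44-fold; trend adjusted p = 0.0227). The second probes of TAGLN and ID2 differed by 0.54 and 0.34 and did not pass, with trend adjusted p of 0.0732 and 0.0944.

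**Figure D5:**
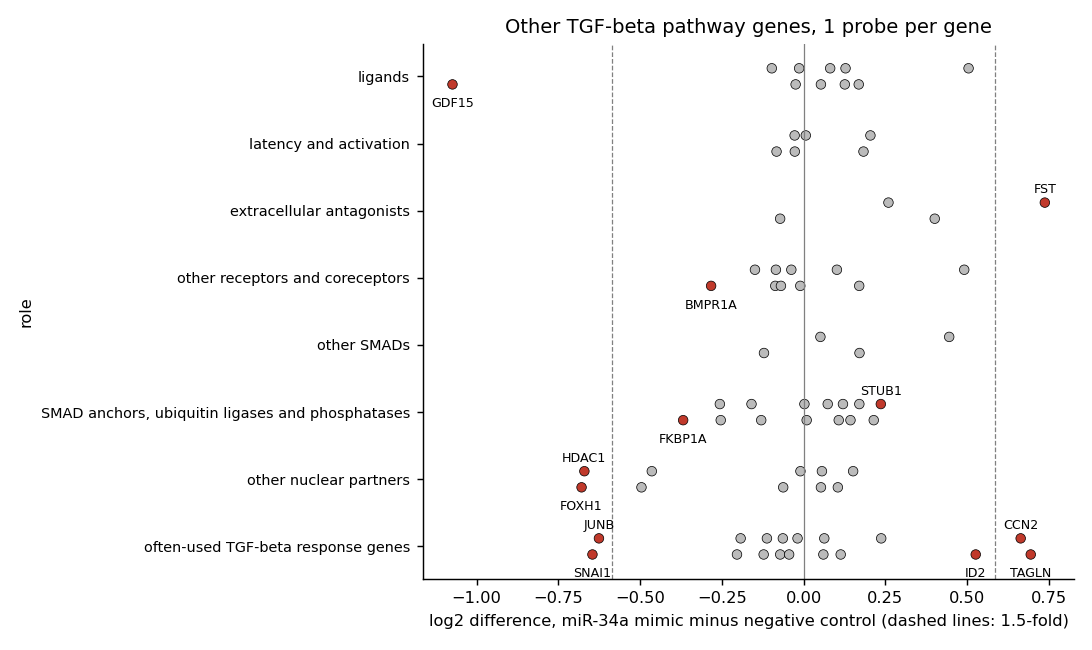
Difference between the conditions (horizontal axis, log2, miR-34a mimic minus negative control) for the 75 tested genes of the wider pathway, 1 point per gene, in rows by role; red points are the 12 genes named by a set rule, and dashed lines mark 1.5-fold. Most points lie between the dashed lines, with 5 beyond the lower and 3 beyond the upper.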

How the data were processed

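The authors deposited the intensity of every spot of 4 one-color arrays, extracted with Agilent Feature Extraction 10.7 per the submitters' processing notes (10.7.3.1 per the file headers), which subtracts background and removes spatial trends but does not scale arrays to one another. A deposited table of all arrays, also of processed intensity, served as an alternative, with 0 columns that no sample here could claim. Control spots and outlier-flagged spots (293 to 424 per array) were left out, 0 were saturated, spots of 1 probe were averaged, and log2 values were shifted by each array's 75th percentile. Tests used limma 3.58.1 (lmFit and eBayes; R 4.3.3, with the data.table package at version 1.17.8); tables and plots used Python 3.11.15 with pandas 2.3.3 and matplotlib 3.10.9. The scripts were tested on simulated data. The number of arrays limits the precision; log2 differences between the 2 arrays of a condition had an SD of 0.337 for the mimic and 0.29 for the control. The 1.5-fold threshold was taken from the study.

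The 9 genes, the lists and the alternatives were chosen with earlier results of these data known. Named genes were all 9 with every probe, and listed pathway genes past 1.5-fold or past adjusted p under 0.05 with the variance trend, at most the 15 largest changes well above background on all 4 arrays. CCN2 and NRROS appear on the array under older names and were matched through RefSeq synonyms. Positions are those of the array's hg19 annotation; exon and UTR annotation of hg19 and protein sequences were not used here. Alternatives were normexp (offset 50), quantile normalization, the percentile over detected probes, no filter or a filter on all 4 arrays, the deposited table, the replicate block, the variance trend, the methods' t-test and leaving out each array.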

Additional observations from a re-analysis of the deposited data

How the results depend on the processing

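None of the 10 tested probes changed sign under any alternative, TGFBR1 with its unmeasured controls taken as read. Much of this was fixed in advance. Changes of filter or of test leave a difference as it is, and leaving out 1 array cannot reverse it where the conditions do not overlap. The 2 differences that passed an adjusted p under 0.05, for TGFBR2 and the 3′-most TGIF1 probe, did so under the variance trend. The count of probes at an adjusted p under 0.05 was thus 0 by limma and 2 with the trend; the latter was 1 with normexp, 0 with no filter on dim probes and 0 to 2 with an array left out. The count lower by more than 1.5-fold was 0, and 0 to 1 with an array left out (TGIF2 without the first mimic or first control array). The count higher was 1 (TGFBR1, as read, though its bound is under 1.5-fold), but 0 with normexp, 2 with no filter, 0 with the filter on all 4 arrays and 0 to 1 with an array left out (0 without the second mimic or first control array). For the wider pathway, 5 lower became 2 with normexp and 8 with no filter, and ran from 4 to 6 with an array left out; 3 higher became 1 with normexp, 5 with quantile normalization, 5 with no filter and 3 to 5 with an array left out. The 10 pathway genes past the trend threshold became 3 with no filter and 0 to 14 with an array left out, 0 without either control array. With an array left out, the lone array of its condition is assumed to vary like the other condition. The causes of these shifts were not tested.

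The labels do not say whether arrays with the same replicate number belong together. The replicate differences of the conditions correlated at -0.0276 over the tested probes. No shift shared by replicate number was therefore seen, which does not show that the arrays were unpaired. With the replicate block, the trend count for the 9 genes was 1, because the adjusted p of TGFBR2 was 0.0744, and that of TGIF1 was 0.0418. The 4 untested probes were run only with no filter. Signal over background limits SMAD4, the second TGFBR2 probe and TGFBR1. With normexp, the TGFBR1 difference was 0.04 with its control signals as read.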
